A study of Mus musculus with 11 samples.

Results

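The tumor necrosis factor (TNF) superfamily of ligands and the TNF receptor superfamily were followed in mouse B-lineage leukemias and in progenitor B cells. Members were taken by symbol: every gene named Tnfrsf or Tnfsf with a number, together with Cd27, Cd40, Cd40lg, Cd70, Fas, Fasl, Ltbr, Lta, Ltb and Tnf. This gave 41 identifiers, of which Tnfrsf11b was at 0 in every library, and the remaining 40 genes (23 receptors and 17 ligands) are described here out of 17380 genes above 0. All mice were C57BL/6, and no age was stated. The leukemias were 5 libraries, each from 1 mouse of genotype Pax5+/- x Ebf1+/-, made from lymph node cell suspensions that had been flash frozen. Ebf1+/- progenitor B cells (3 libraries) and wild-type progenitor B cells (3 libraries) were purified on columns from bone marrow, each library from a pool of 3 to 7 mice. Pax5 and Ebf1 are transcription factors of the B lineage, and Pax5+/- and Ebf1+/- mice carry 1 inactive copy of the gene. The leukemias therefore differ from both marrow groups in leukemic state, tissue, purification and pooling. They also differ from the Ebf1+/- group in the Pax5 genotype and from wild type in the Pax5 and Ebf1 genotypes. These differences cannot be told apart.

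TNF family ligands are mostly membrane proteins that form trimers and can be shed, and they bind receptors that either carry a death domain, which can start cell death, or recruit TRAF adaptor proteins, which activate NF-kB and MAP kinases. In the B lineage the family includes the BAFF and APRIL system, which keeps maturing B cells alive, CD40, which receives T cell help, and lymphotoxins, which B cells supply for the building of lymph nodes and spleen. RANK ligand, another member, drives the formation of bone-resorbing osteoclasts and of lymph nodes.

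Levels are given as FPKM, the deposited unit of fragments per kilobase of transcript, scaled to the library. Library totals ran from 8.51 to 15.31 in units of 1e6 reads, and at a length of 2000 bases a single read added 0.033 to 0.059 FPKM. Pax5 ranged from 71.4 to 162 FPKM in leukemias, 89.0 to 254 in Ebf1+/- cells and 175 to 312 in wild-type cells. Ebf1 ranged from 54.3 to 81.4 FPKM in leukemias, 43.4 to 86.5 in Ebf1+/- cells and 83.4 to 112 in wild-type cells, so that the Ebf1+/- and wild-type ranges overlapped. The 12 B-lineage markers summed to 3660 to 5320 FPKM in leukemias, 2250 to 7000 in Ebf1+/- cells and 3260 to 5790 in wild-type cells. Markers of some other marrow cells were far lower in leukemias. The 10 granulocyte markers summed to 3.79 to 8.0 FPKM there, against 2580 to 10100 in Ebf1+/- cells and 612 to 3240 in wild-type cells. The 8 monocyte and macrophage markers summed to 59.0 to 159 FPKM in leukemias, 489 to 2040 in Ebf1+/- cells and 394 to 662 in wild-type cells. The 7 megakaryocyte and platelet markers summed to 0.247 to 1.35 FPKM in leukemias, 142 to 4000 in Ebf1+/- cells and 76.3 to 443 in wild-type cells. The 8 erythroid markers summed to 57.3 to 148 FPKM in leukemias, 492 to 1200 in Ebf1+/- cells and 224 to 1230 in wild-type cells. Mature B and plasma cell markers summed to 42.1 to 68.5, 69.5 to 93.2 and 83.6 to 109 FPKM in the same order. Lymph node stroma markers summed to 25.2 to 42.8, 47.9 to 76.5 and 67.0 to 101 FPKM, so leukemias were lowest for these 3 lists too. The T cell, NK cell and dendritic cell lists overlapped between leukemias and both marrow groups. T cell markers summed to 12.8 to 143 FPKM in leukemias and 17.0 to 36.1 in wild-type cells. NK cell markers summed to 14.0 to 50.5 and 13.1 to 24.7 FPKM, and dendritic cell markers to 9.0 to 68.3 and 18.7 to 72.4 FPKM, in the same order. In bulk RNA, fewer cells of a type and less RNA per cell cannot be told apart, which applies to every level below.

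Differences were tested with limma on log2(FPKM + 1) across all genes whose mean reached 1 FPKM in the libraries compared, and a gene was called at a Benjamini-Hochberg adjusted p under 0.05. Fold changes are on that scale and are too small for genes of low level. Against wild type, 22 of the 40 members were tested in leukemias, and 10 were called higher and 5 lower, where 44.8% of all 10968 genes tested were called, 20.7% higher and 24.1% lower. Of the 7 ligands tested, 5 were higher and 0 lower, and of the 15 receptors, 5 were higher and 5 lower. The median log2 difference was 0.72 over the 22 members, against -0.04 over all genes. These counts are descriptive, since 9 of the 22 members (Cd27, Cd40, Lta, Ltbr, Tnf, Tnfrsf22, Tnfsf11, Tnfsf8 and Tnfsf9) reached the minimum level through 1 group alone. All 5 ligands called higher are among them and reached it through leukemias. With no minimum level, where 21.4% of all genes were called lower, limma also called Fasl, Tnfsf12, Tnfsf13, Tnfsf13b and Tnfsf14 lower. The 0 lower ligands thus depended on the minimum level. Of the 13 members that reached this mean in both groups, 6 were called (4 higher and 2 lower), a share near that of all genes tested. The share over all genes also includes genes that reached the minimum through 1 group alone.

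The ligands that stood out were 2 neighbours, Tnf and Lta, together with Tnfsf11. Ltb, Tnf and Lta lie side by side on chromosome 17 of GRCm38: Ltb at 35194439 to 35196320 on the plus strand, Tnf at 35199381 to 35202007 on the minus strand, 3.06 kb away, and Lta at 35203165 to 35205351 on the minus strand, 1.16 kb further. Tnf encodes the cytokine TNF, Lta encodes lymphotoxin alpha, which binds TNF receptors as a soluble trimer, and Ltb encodes lymphotoxin beta, which anchors lymphotoxin alpha in the membrane as the ligand of the lymphotoxin beta receptor. Their promoter windows are shown because the 3 neighbours had different levels in the same libraries, beside that of Tnfsf11 (chromosome 14, 78277445 to 78308043, minus strand), the ligand with the largest fold change among the members tested. Each window, from RefSeq (GRCm38.p6), runs from 250 bases before to 50 bases after the annotated start, 5′ to 3′ along the gene, and capitals mark the letters TATAAA, the core of a TATA box, on either strand.
Tnf (chr17:35201958-35202257, minus strand): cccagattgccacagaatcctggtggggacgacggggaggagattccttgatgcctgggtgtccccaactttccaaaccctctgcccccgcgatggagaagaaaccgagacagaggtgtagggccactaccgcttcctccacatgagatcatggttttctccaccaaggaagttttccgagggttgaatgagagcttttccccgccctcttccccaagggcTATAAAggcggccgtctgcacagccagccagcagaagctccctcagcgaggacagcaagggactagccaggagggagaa
Lta (chr17:35205302-35205601, minus strand): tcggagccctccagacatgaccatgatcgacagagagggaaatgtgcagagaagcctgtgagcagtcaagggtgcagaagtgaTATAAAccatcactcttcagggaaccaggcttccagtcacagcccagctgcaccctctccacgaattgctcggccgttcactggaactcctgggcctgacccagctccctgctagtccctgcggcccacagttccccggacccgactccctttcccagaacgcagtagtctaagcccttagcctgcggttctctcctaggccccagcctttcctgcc
Ltb (chr17:35194257-35194556, plus strand): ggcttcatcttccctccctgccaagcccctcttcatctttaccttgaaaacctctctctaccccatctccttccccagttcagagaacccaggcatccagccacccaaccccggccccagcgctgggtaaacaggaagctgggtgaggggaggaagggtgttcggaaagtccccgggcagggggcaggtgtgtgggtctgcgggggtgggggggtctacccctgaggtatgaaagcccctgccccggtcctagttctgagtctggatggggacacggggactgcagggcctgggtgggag
Tnfsf11 (chr14:78307994-78308293, minus strand): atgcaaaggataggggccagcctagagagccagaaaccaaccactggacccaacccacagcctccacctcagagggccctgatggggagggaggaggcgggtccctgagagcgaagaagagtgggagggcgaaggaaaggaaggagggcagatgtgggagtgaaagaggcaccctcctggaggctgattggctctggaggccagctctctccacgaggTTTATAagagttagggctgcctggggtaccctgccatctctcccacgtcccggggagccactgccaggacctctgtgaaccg
The Tnf window held TATAAA starting at -29 from the annotated start, the Lta window at -167, and the Tnfsf11 window on the opposite strand at -32, whereas the Ltb window did not hold these letters. Of the 35 windows of members 6 (17.1%) held TATAAA, and 13.6% of all 32851 windows did. These matches describe letters in a window and say nothing of binding, and 9 members had no window in the table.

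Tnf stood at 2.49, 4.02, 5.41, 3.69 and 5.45 FPKM in leukemias 1 to 5, at 2.05, 0.216 and 0.288 FPKM in Ebf1+/- cells and at 0.491, 0.102 and 0.0417 FPKM in wild-type cells. Every leukemia lay above every marrow library, and Ebf1+/- replicate 1 was the nearest. In leukemias Tnf rose against wild type by a log2 fold change of 2.09 (SE 0.24, adjusted p = 0.000235, limma) and against Ebf1+/- cells by 1.59 (SE 0.34, adjusted p = 0.0119). The second call was lost with the replicate number as a block (1.52, adjusted p = 0.108), among adjusted p-values of 0.00291 to 0.108 over its alternatives. In that block leukemias 4 and 5 add nothing to the difference, since no marrow library has their number.

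Lta stood at 5.95, 6.4, 11.1, 6.6 and 15.9 FPKM in leukemias, at 1.27, 1.23 and 0.689 FPKM in Ebf1+/- cells and at 0.0652, 0.671 and 0.150 FPKM in wild-type cells. No group overlapped another, and leukemias 3 and 5, which were also the highest for Tnf, were the highest. Lta rose in leukemias by 2.91 (SE 0.32, adjusted p = 0.000175, limma) against wild type and by 2.23 (SE 0.31, adjusted p = 0.00158) against Ebf1+/- cells.

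Ltb, the most abundant ligand on average in each group, was not called, and its difference from Tnf and Lta was not tested. It stood at 67.8, 26.6, 55.2, 30.1 and 35.4 FPKM in leukemias, at 64.8, 36.3 and 19.3 FPKM in Ebf1+/- cells and at 31.0, 21.4 and 14.2 FPKM in wild-type cells. The groups overlapped, and leukemia 1, the lowest of the leukemias for Lta and Tnf, was the highest for Ltb. The difference from wild type missed the threshold, at 0.90 (SE 0.34, adjusted p = 0.0553, limma), and that from Ebf1+/- cells was 0.17 (SE 0.41, adjusted p = 0.799). The difference from wild type was positive in all 16 alternatives (0.63 to 1.16) and passed in 5: without leukemia 2 (adjusted p = 0.0360) or 4 (adjusted p = 0.0498), without wild-type replicate 1 (adjusted p = 0.0397), with quantile scaling (adjusted p = 0.0459) and with the replicate block (1.10, adjusted p = 0.0405). Adjusted p-values over all alternatives ran from 0.036 to 0.203.

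**Figure D1:**
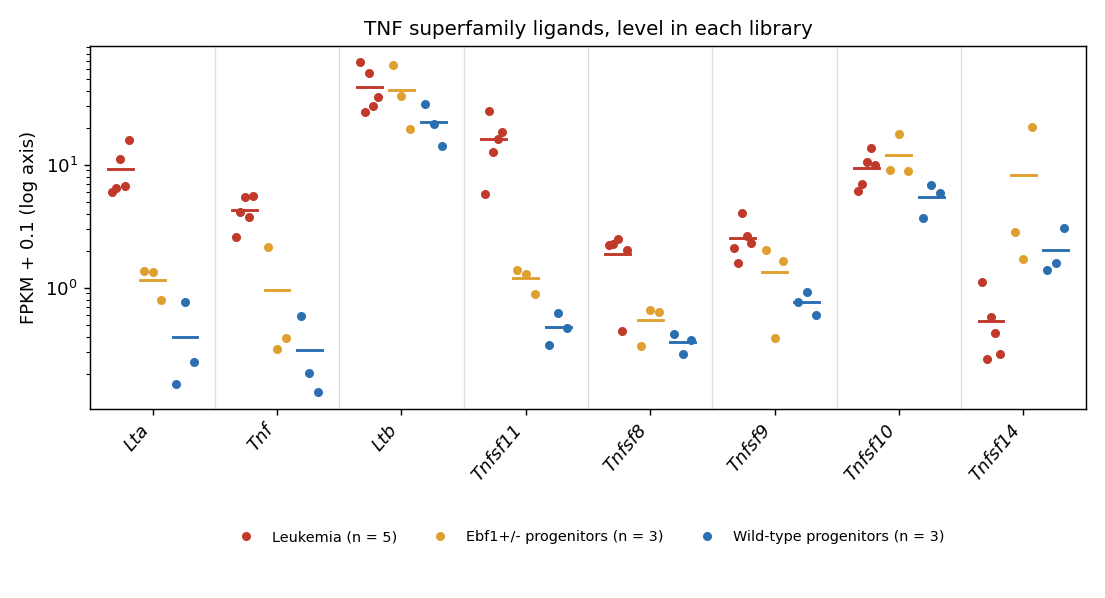
Levels of the named ligands in each library, as FPKM + 0.1 on a log axis, with leukemias, Ebf1+/- cells and wild-type cells from left to right; points are libraries and bars are group means. Tnfsf11, Lta and Tnf are higher in all 5 leukemias than in any marrow library, whereas the 3 groups overlap for Ltb.

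Tnfsf11 encodes RANK ligand. It stood at 5.63, 27.4, 12.5, 16.2 and 18.4 FPKM in leukemias, at 1.29, 1.20 and 0.782 FPKM in Ebf1+/- cells and at 0.242, 0.528 and 0.370 FPKM in wild-type cells. The 3 groups did not overlap, and leukemia 1 was again the lowest leukemia. The rise in leukemias was 3.48 (SE 0.39, adjusted p = 0.000215, limma) against wild type and 2.88 (SE 0.40, adjusted p = 0.00155) against Ebf1+/- cells. In reads, the leukemias held 2312 and the wild-type libraries 32, a ratio per library total of 44.2 with a 95% counting interval of 31.2 to 64.7.

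Its receptor gene Tnfrsf11a, which encodes RANK (chromosome 1, 105780718 to 105847981), was below the minimum level in both comparisons of leukemias. It stood at 1.64, 0.912, 0.658, 0.508 and 0.681 FPKM in leukemias, at 0.156, 0.249 and 0.348 FPKM in Ebf1+/- cells and at 0.108, 0.168 and 0.110 FPKM in wild-type cells. Every leukemia lay above every marrow library. With no minimum level, a setting in which 34.8% of all genes were called (13.3% higher and 21.4% lower), limma gave 0.71 (SE 0.17, adjusted p = 0.0137) against wild type, while the difference from Ebf1+/- cells was not called (0.56, SE 0.18, adjusted p = 0.0624). The 253 reads in leukemias and 24 in wild type gave a ratio of 6.44 (95% counting interval 4.23 to 10.2). Tnfrsf11b, the gene of osteoprotegerin, which binds RANK ligand as a decoy, was the member at 0 in all 11 libraries.

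Tnfsf8, which encodes CD30 ligand, and Tnfsf9, which encodes 4-1BB ligand, were also higher in leukemias than in wild type. Tnfsf8 stood at 2.11, 2.16, 2.39, 0.347 and 1.91 FPKM in leukemias, at 0.234, 0.560 and 0.535 FPKM in Ebf1+/- cells and at 0.324, 0.189 and 0.279 FPKM in wild-type cells. Leukemia 4 lay apart from the other leukemias, just above wild type and within the Ebf1+/- range. The rise against wild type was 1.07 (SE 0.31, adjusted p = 0.0214, limma). It missed the threshold without wild-type replicate 1 (adjusted p = 0.0503), 2 (adjusted p = 0.0686) or 3 (adjusted p = 0.0530) and with voom on recovered reads (adjusted p = 0.0621), and adjusted p-values over all alternatives ran from 0.000975 to 0.0686. Against Ebf1+/- cells the difference was 0.88 (SE 0.33, adjusted p = 0.0875), which passed without leukemia 4 (1.13, adjusted p = 0.0121) and with quantile scaling (1.34, adjusted p = 0.0131), among adjusted p-values of 0.0121 to 0.174.

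Tnfsf9 stood at 2.01, 1.49, 3.93, 2.51 and 2.21 FPKM in leukemias, at 1.91, 0.290 and 1.55 FPKM in Ebf1+/- cells and at 0.660, 0.823 and 0.505 FPKM in wild-type cells. The leukemias did not overlap wild type but overlapped Ebf1+/- cells. The rise against wild type was 1.01 (SE 0.23, adjusted p = 0.00705, limma), and the difference from Ebf1+/- cells was 0.65 (SE 0.32, adjusted p = 0.177). With the replicate block the first was lost (adjusted p = 0.0595, the highest of alternatives that began at 0.00156), and with quantile scaling the second passed (1.00, adjusted p = 0.0491, the lowest of alternatives that reached 0.497). The antisense transcript Gm11110 overlaps 305 exonic bases of Tnfsf9, and reads of the pair cannot be separated without knowing whether the counting used strand.

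Tnfsf10 encodes TRAIL, a ligand of death receptors. It stood at 6.02, 6.93, 10.5, 13.6 and 9.78 FPKM in leukemias, at 8.99, 17.6 and 8.82 FPKM in Ebf1+/- cells and at 3.56, 6.79 and 5.82 FPKM in wild-type cells. Leukemias 1 and 2 lay near the upper wild-type values, and every Ebf1+/- library lay above wild type. The differences did not pass the test, at 0.68 (SE 0.26, adjusted p = 0.0604, limma) in leukemias against wild type and 0.97 (SE 0.32, adjusted p = 0.550) in Ebf1+/- cells against wild type. The first passed without leukemia 1 (0.81, adjusted p = 0.0310) and with quantile scaling (adjusted p = 0.0450), among adjusted p-values of 0.031 to 0.225 over its alternatives.

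Tnfsf14, which encodes LIGHT, a ligand of the lymphotoxin beta receptor and of the receptor encoded by Tnfrsf14, was lower in leukemias than in Ebf1+/- cells. It stood at 1.01, 0.163, 0.474, 0.331 and 0.187 FPKM in leukemias, at 2.73, 1.62 and 20.3 FPKM in Ebf1+/- cells and at 1.30, 1.49 and 2.95 FPKM in wild-type cells. Each leukemia lay below each marrow library, and Ebf1+/- replicate 3 lay far above the rest. The log2 difference from Ebf1+/- cells was -2.08 (SE 0.60, adjusted p = 0.0373, limma). It missed the threshold without leukemia 1 (adjusted p = 0.0526), 2 (adjusted p = 0.0767), 3 (adjusted p = 0.0681), 4 (adjusted p = 0.0671) or 5 (adjusted p = 0.0652), and with no minimum level (adjusted p = 0.0550), quantile scaling (adjusted p = 0.0685), the replicate block (adjusted p = 0.116) or voom (adjusted p = 0.0666), and adjusted p-values over all alternatives ran from 0.0188 to 0.116. In reads, the leukemias held 44 and wild-type cells 140, a ratio of 0.192 (95% counting interval 0.134 to 0.271). Against wild type limma with no minimum level gave -1.01 (SE 0.23, adjusted p = 0.0121), where 21.4% of all genes were called lower. The megakaryocyte and platelet markers summed to 142, 258 and 4000 FPKM in Ebf1+/- replicates 1 to 3 and to 76.3, 248 and 443 FPKM in wild-type replicates, and their part in the Tnfsf14 result was not tested.

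The ligands BAFF (Tnfsf13b) and APRIL (Tnfsf13) were near 0 in leukemias. Tnfsf13 was at 0 in leukemias 1 to 4 and at 0.0416 FPKM, a single read, in leukemia 5, against 0.778, 0.372 and 1.14 FPKM in Ebf1+/- cells and 0.430, 0.402 and 0.699 FPKM in wild-type cells. Tnfsf13b stood at 0.0692, 0, 0.0949, 0 and 0.0822 FPKM in leukemias, at 1.85, 0.420 and 0.327 FPKM in Ebf1+/- cells and at 1.01, 0.348 and 0.163 FPKM in wild-type cells. For both genes every leukemia lay below every marrow library. Tnfsf13 had 1 read in leukemias and 33 in wild type, a ratio of 0.0185 (95% counting interval 0.000455 to 0.111), and Tnfsf13b had 5 in leukemias and 30 in wild type, a ratio of 0.102 (0.0309 to 0.265). With no minimum level limma gave -0.58 (SE 0.06, adjusted p = 0.000398) for Tnfsf13 and -0.48 (SE 0.15, adjusted p = 0.0426) for Tnfsf13b. Myeloid cells are a known source of both ligands. The granulocyte markers and the monocyte and macrophage markers moved in the same direction, with 10 of 10 and 3 of 5 tested called lower in leukemias, and their part in the result was not tested. Tnfsf13 and its neighbour Tnfsf12, the gene of TWEAK, each share exons with the readthrough gene Tnfsfm13 in GENCODE M21, so that their reads cannot be assigned with certainty.

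The other ligands were low throughout. Cd40lg, Cd70, Tnfsf15 and Tnfsf18 had at most 0.318 FPKM in any library. Tnfsf4, which encodes OX40 ligand, stood at 0.731, 0.190, 0.150, 0.529 and 2.04 FPKM in leukemias, against 0, 0.111 and 0.148 in Ebf1+/- cells and 0.0560, 0.0524 and 0.0429 in wild-type cells. Its leukemia values spread widely and all lay above the marrow values, with 75 reads in leukemias and 3 in wild type (ratio 15.3, 95% counting interval 5.03 to 75.7). Leukemia 5 alone held 47 of the 75 reads. With no minimum level limma called neither difference, at 0.62 (SE 0.29, adjusted p = 0.142) against wild type and 0.57 (SE 0.30, adjusted p = 0.224) against Ebf1+/- cells. Fasl, the gene of Fas ligand, had 8 reads in leukemias and 17 in wild type (ratio 0.288, 95% counting interval 0.107 to 0.703). Tnfsf12 had 7 reads in leukemias and 18 in wild type (ratio 0.238, 95% counting interval 0.0839 to 0.596). Against wild type limma with no minimum level gave -0.21 (SE 0.06, adjusted p = 0.0285) for Fasl and -0.29 (SE 0.08, adjusted p = 0.0252) for Tnfsf12.

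**Figure D2:**
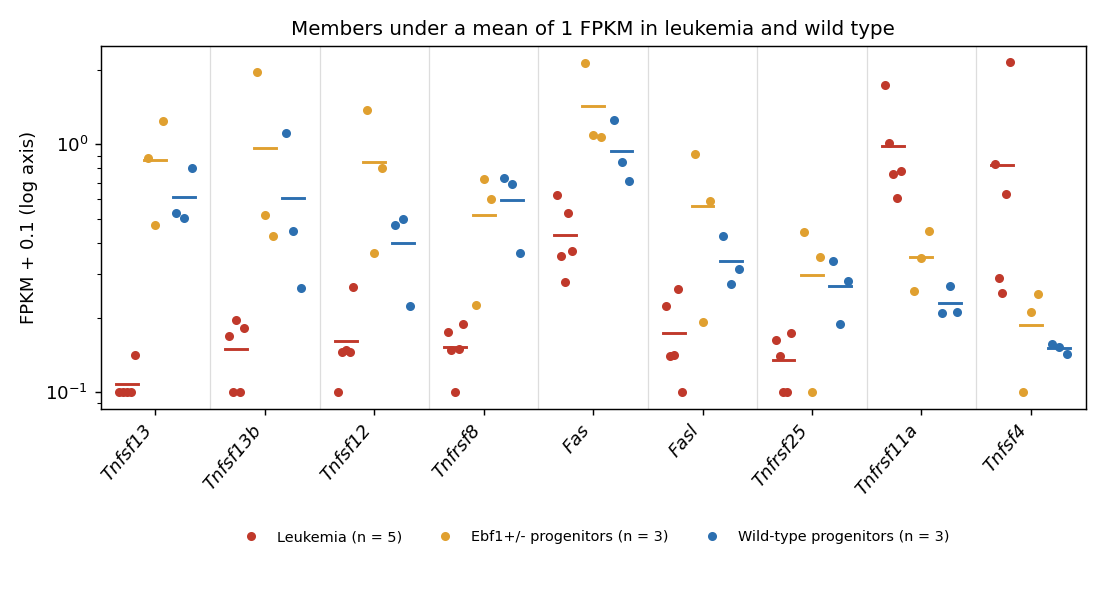
Levels of 9 members below the minimum for testing in leukemias against wild type, as FPKM + 0.1 on a log axis, by library, with leukemias, Ebf1+/- cells and wild-type cells from left to right and bars at group means. Each leukemia lies above each marrow library for Tnfrsf11a and Tnfsf4, of which limma with no minimum level called Tnfrsf11a, against wild type alone, whereas Tnfsf13 and Tnfsf13b are at or near 0 there.

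Among the receptors of BAFF and APRIL, the BAFF receptor gene fell in leukemias and the TACI gene was not called. Tnfrsf13c, which encodes the BAFF receptor (chromosome 15, 82221743 to 82224369), stood at 35.5, 34.9, 31.3, 28.6 and 15.1 FPKM in leukemias, at 62.8, 47.3 and 20.9 FPKM in Ebf1+/- cells and at 72.1, 57.7 and 37.7 FPKM in wild-type cells. Every leukemia lay below every wild-type library, the nearest being leukemia 1 and wild-type replicate 3, and the Ebf1+/- values spread over both. The log2 difference in leukemias against wild type was -0.93 (SE 0.29, adjusted p = 0.0296, limma). It missed the threshold without wild-type replicate 1 (-0.72, adjusted p = 0.119), without wild-type replicate 2 (-0.88, adjusted p = 0.0912) and with all groups in 1 fit (adjusted p = 0.0659), and adjusted p-values over all alternatives ran from 0.0191 to 0.119. Tnfrsf13b, which encodes TACI, a receptor of both BAFF and APRIL, stood at 31.8, 22.6, 20.4, 23.8 and 19.7 FPKM in leukemias, at 15.9, 22.4 and 19.3 FPKM in Ebf1+/- cells and at 30.2, 31.6 and 17.8 FPKM in wild-type cells. The groups overlapped, and the difference against wild type was -0.13 (SE 0.21, adjusted p = 0.627). Tnfrsf17, which encodes BCMA, a receptor of plasma cells, had at most 0.282 FPKM in any library.

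Against wild type, the called receptors with the largest falls were Cd27 and Cd40. Cd27, which encodes the receptor of CD70, stood at 1.27, 0.727, 0.460, 0.392 and 0.487 FPKM in leukemias, at 12, 7.02 and 11.7 FPKM in Ebf1+/- cells and at 6.23, 3.53 and 7.00 FPKM in wild-type cells. No group overlapped another, with leukemias lowest and Ebf1+/- cells highest. The log2 difference was -1.97 (SE 0.25, adjusted p = 0.000359, limma) in leukemias against wild type and -2.74 (SE 0.24, adjusted p = 0.000151) against Ebf1+/- cells. The microRNA gene Mir8113 shares 129 exonic bases with Cd27 on the same strand, and reads there cannot be assigned with certainty. Cd40 stood at 2.17, 0.599, 0.452, 0.173 and 0.391 FPKM in leukemias, at 8.02, 2.55 and 1.78 FPKM in Ebf1+/- cells and at 8.74, 3.92 and 4.02 FPKM in wild-type cells. The leukemias lay below wild type, and leukemia 1, apart from the other leukemias, lay above Ebf1+/- replicate 3. The log2 difference was -1.92 (SE 0.36, adjusted p = 0.00268) against wild type and -1.44 (SE 0.44, adjusted p = 0.0460) against Ebf1+/- cells. The call against Ebf1+/- cells was lost without leukemia 2 (adjusted p = 0.0862), 3 (adjusted p = 0.0897), 4 (adjusted p = 0.0868) or 5 (adjusted p = 0.0813) and without Ebf1+/- replicate 1 (-0.93, adjusted p = 0.126) or 2 (adjusted p = 0.0741), and with no minimum level (adjusted p = 0.0616), quantile scaling (adjusted p = 0.103) or the replicate block (adjusted p = 0.0755), among adjusted p-values of 0.027 to 0.126 over all alternatives.

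Ltbr, which encodes the lymphotoxin beta receptor, and Tnfrsf1a, which encodes TNF receptor 1, lie near Cd27 on chromosome 6, with Ltbr 69.6 kb from Cd27 and Tnfrsf1a 35.5 kb from Ltbr, and 1 protein-coding gene in each gap. Both varied widely among leukemias. Ltbr stood at 3.03, 0, 0.385, 0.924 and 0.133 FPKM in leukemias, at 8.83, 2.34 and 10.2 FPKM in Ebf1+/- cells and at 2.97, 2.30 and 4.19 FPKM in wild-type cells. Leukemia 1 lay within the wild-type range, and the other leukemias lay below every marrow library. The log2 difference was -1.31 (SE 0.43, adjusted p = 0.0350, limma) against wild type and -2.12 (SE 0.53, adjusted p = 0.0222) against Ebf1+/- cells. Against wild type the call was lost in 10 of 15 alternatives, whose adjusted p-values ran from 0.00325 to 0.117, including without leukemia 2 (adjusted p = 0.0649), 3 (adjusted p = 0.0676) or 5 (adjusted p = 0.0623) and without wild-type replicate 1 (adjusted p = 0.0843), 2 (adjusted p = 0.0614) or 3 (adjusted p = 0.117). Against Ebf1+/- cells it was lost without Ebf1+/- replicate 1 (adjusted p = 0.0655) or 3 (adjusted p = 0.0797), among adjusted p-values of 0.00944 to 0.0797.

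Tnfrsf1a stood at 8.35, 0.106, 4.71, 6.03 and 0.874 FPKM in leukemias, at 19.2, 8.03 and 23.7 FPKM in Ebf1+/- cells and at 7.61, 4.81 and 9.67 FPKM in wild-type cells. Leukemias 2 and 5, also the lowest for Ltbr, were far below the other leukemias, which lay within or just outside the wild-type range. The log2 difference was -1.10 (SE 0.67, adjusted p = 0.209, limma) against wild type and -2.12 (SE 0.70, adjusted p = 0.0593) against Ebf1+/- cells. The second passed without leukemia 1 (-2.45, adjusted p = 0.0426), with all groups in 1 fit (adjusted p = 0.0337) and with the replicate block (adjusted p = 0.0341), among adjusted p-values of 0.0337 to 0.168 over its alternatives. The monocyte and macrophage markers summed to 102, 98.6, 159, 59.0 and 150 FPKM in leukemias 1 to 5, to 2040, 489 and 1080 in Ebf1+/- cells and to 662, 394 and 489 in wild-type cells. Myeloid cells are known to carry both receptors, and the part of these cells in the Ltbr and Tnfrsf1a values was not tested.

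**Figure D3:**
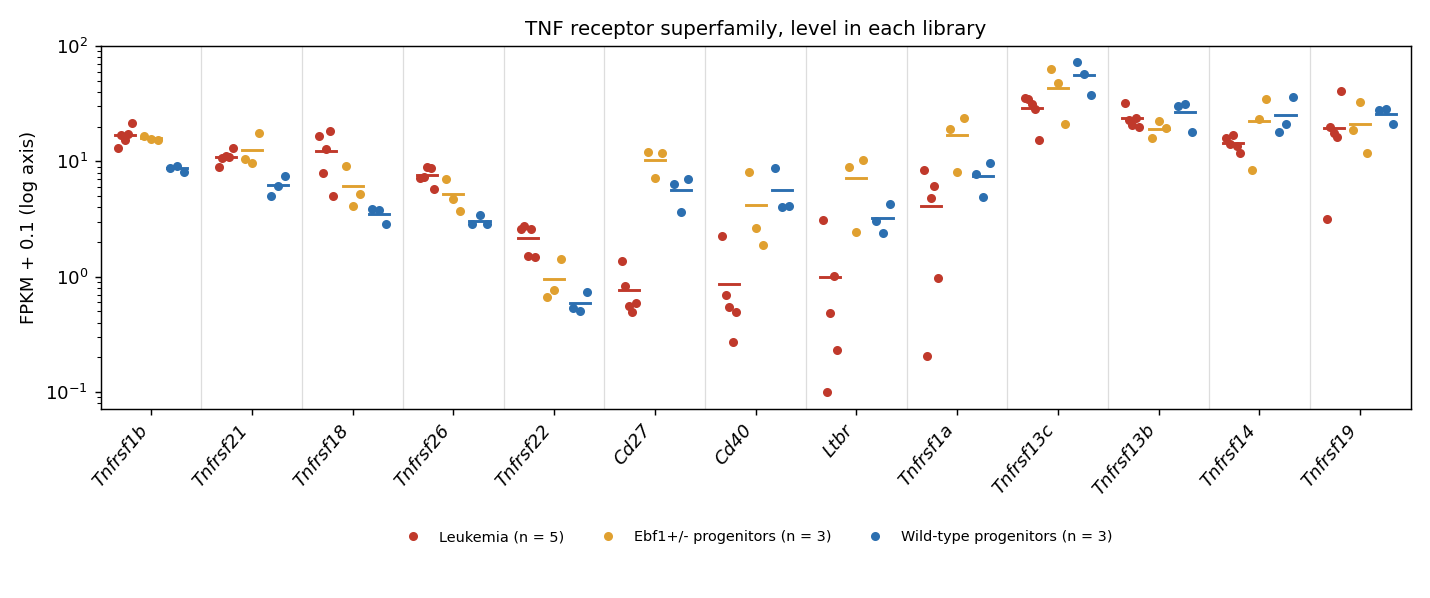
Levels of the named receptors in each library, as FPKM + 0.1 on a log axis, with leukemias, Ebf1+/- cells and wild-type cells from left to right; points are libraries and bars are group means. Cd27 is lowest in the 5 leukemias, Tnfrsf1b is lowest in the 3 wild-type libraries, and Tnfrsf1a and Ltbr spread over a wide range among leukemias.

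Tnfrsf1b, which encodes TNF receptor 2 (chromosome 4, 145213463 to 145246870), stood at 13.0, 16.7, 15.1, 17.1 and 21.5 FPKM in leukemias, at 16.6, 15.4 and 15.3 FPKM in Ebf1+/- cells and at 8.73, 8.98 and 8.06 FPKM in wild-type cells. Wild-type cells were the lowest, with little spread, and the leukemias and Ebf1+/- cells overlapped. The rise in leukemias was 0.87 (SE 0.15, adjusted p = 0.00169, limma) against wild type and the difference from Ebf1+/- cells 0.06 (SE 0.16, adjusted p = 0.819). Tnfrsf21, which encodes death receptor 6, stood at 8.85, 10.7, 11, 10.9 and 13.0 FPKM in leukemias, at 10.4, 9.64 and 17.6 FPKM in Ebf1+/- cells and at 4.90, 6.05 and 7.44 FPKM in wild-type cells. Its mean was 10.9 FPKM in leukemias, 12.5 in Ebf1+/- cells and 6.13 in wild type. The leukemias overlapped Ebf1+/- cells and lay above wild type, with a rise of 0.75 (SE 0.15, adjusted p = 0.00388, limma), and the difference from Ebf1+/- cells was -0.15 (SE 0.20, adjusted p = 0.636).

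Tnfrsf18, which encodes GITR, stood at 16.5, 7.81, 12.7, 18.3 and 4.92 FPKM in leukemias, at 8.95, 3.98 and 5.13 FPKM in Ebf1+/- cells and at 3.76, 3.68 and 2.74 FPKM in wild-type cells. All leukemias lay above wild type, while leukemias 2 and 5 lay within the Ebf1+/- range. The rise against wild type was 1.45 (SE 0.36, adjusted p = 0.0110, limma), and with voom on recovered reads it missed the threshold (1.63, adjusted p = 0.0542), among adjusted p-values of 0.00151 to 0.0542. The difference from Ebf1+/- cells was 0.83 (SE 0.40, adjusted p = 0.171), which passed with the replicate block (0.93, adjusted p = 0.0428). The antisense transcript Gm16008 shares 494 exonic bases with Tnfrsf18, so that its values are uncertain in the same way as those of Tnfsf9. GITR is best known from T cells, and the 10 T cell markers summed to 143, 21.7, 34.5, 82.4 and 12.8 FPKM in leukemias 1 to 5, 43.5, 19.6 and 86.9 in Ebf1+/- cells and 26.1, 17.0 and 36.1 in wild-type cells. Leukemias 1 and 4 had the highest and leukemias 2 and 5 the lowest values of both. Most of the sum came from Lat (64.3 FPKM) and Trat1 (54.8) in leukemia 1 and from Lat (72.2) in leukemia 4. Cd3d, Cd3e and Cd3g stood at 3.98, 2.05 and 3.33 FPKM in leukemia 1. They stood at 0.756, 0.377 and 1.06 FPKM in leukemia 4, near leukemia 2 (1.09, 0.797 and 0.746) and leukemia 5 (0.577, 0.729 and 0.887). Against wild type 0 of 8 T cell markers tested were called, and their part in the result was not tested. Tnfrsf4, which encodes OX40 and lies 9.55 kb from Tnfrsf18, averaged 1.11 ± 0.533 FPKM in leukemias (SD, n = 5), 1.04 ± 1.11 in Ebf1+/- cells and 1.54 ± 1.11 in wild-type cells (n = 3 each), with no call.

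Tnfrsf22 and Tnfrsf26, receptors of mouse with no known death domain signalling of their own, lie 6.08 kb apart on chromosome 7, beside Tnfrsf23. Tnfrsf26 stood at 7.07, 7.23, 8.83, 8.65 and 5.67 FPKM in leukemias, at 7.00, 4.64 and 3.60 FPKM in Ebf1+/- cells and at 2.79, 3.31 and 2.78 FPKM in wild-type cells. Wild type was below both other groups, which overlapped each other. The rise in leukemias was 1.09 (SE 0.15, adjusted p = 0.000578, limma) against wild type and the difference from Ebf1+/- cells 0.51 (SE 0.21, adjusted p = 0.115), which passed without Ebf1+/- replicate 1 (0.72, adjusted p = 0.0274). Tnfrsf22 stood at 2.48, 2.65, 1.42, 2.48 and 1.38 FPKM in leukemias, at 0.574, 0.666 and 1.33 FPKM in Ebf1+/- cells and at 0.436, 0.408 and 0.637 FPKM in wild-type cells. Every leukemia lay above every marrow library. The rise against wild type was 1.02 (SE 0.21, adjusted p = 0.00475), and the difference from Ebf1+/- cells was 0.73 (SE 0.25, adjusted p = 0.0665), which passed in 4 of 15 alternatives: without Ebf1+/- replicate 3 (0.90, adjusted p = 0.0484), with a pseudocount of 0.1 (1.22, adjusted p = 0.0489), with quantile scaling (1.21, adjusted p = 0.00878) and with all groups in 1 fit (adjusted p = 0.0372). Its adjusted p-values over the alternatives ran from 0.00878 to 0.231. Tnfrsf23 had at most 0.264 FPKM in any library. The 3 genes are related in sequence and reads may have been split between them. The antisense transcript E230032D23Rik shares 107 exonic bases with Tnfrsf26 and 164 with Tnfrsf23, so their values are uncertain in the same way as those of Tnfsf9.

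Tnfrsf14, which encodes HVEM, a receptor of LIGHT, stood at 15.8, 14.1, 16.8, 13.4 and 11.7 FPKM in leukemias, at 8.41, 23.3 and 35.0 FPKM in Ebf1+/- cells and at 18.0, 21.2 and 36.2 FPKM in wild-type cells. The leukemias lay close together and below wild type, and Ebf1+/- replicate 1 was the lowest library. The log2 difference against wild type was -0.71 (SE 0.21, adjusted p = 0.0221, limma), and without wild-type replicate 3 it was -0.43 (adjusted p = 0.0552). The call was also lost with all groups in 1 fit (adjusted p = 0.145) and with the replicate block (adjusted p = 0.0646), among adjusted p-values of 0.0124 to 0.145. Against Ebf1+/- cells it was -0.40 (SE 0.36, adjusted p = 0.460), which passed without Ebf1+/- replicate 1 (-0.95, adjusted p = 0.0119).

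Tnfrsf19, which encodes TROY, stood at 3.05, 19.9, 17.7, 16.3 and 40.3 FPKM in leukemias, at 18.8, 32.5 and 11.8 FPKM in Ebf1+/- cells and at 28.0, 28.4 and 20.9 FPKM in wild-type cells. Leukemia 1 was the lowest and leukemia 5 the highest of all libraries, so that the leukemias spanned both marrow groups. The log2 difference against wild type was -0.71 (SE 0.60, adjusted p = 0.366, limma).

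The other receptors were lower. Tnfrsf12a, which encodes the TWEAK receptor Fn14, averaged 1.75 ± 0.219 FPKM in leukemias (SD, n = 5), 1.87 ± 0.880 in Ebf1+/- cells and 1.56 ± 0.860 in wild-type cells (n = 3 each), with no call. Tnfrsf10b, the mouse TRAIL receptor with a death domain, averaged 1.13 ± 0.798 FPKM in leukemias, 0.707 ± 0.241 in Ebf1+/- cells and 0.719 ± 0.145 in wild-type cells and was not tested. Fas, which encodes the receptor of Fas ligand, had 35 reads in leukemias, 98 in Ebf1+/- cells and 55 in wild-type cells. With no minimum level limma gave -0.46 (SE 0.12, adjusted p = 0.0179) for Fas in leukemias against wild type. Tnfrsf8, which encodes CD30, had 5 reads in leukemias, 24 in Ebf1+/- cells and 28 in wild-type cells, while its ligand gene Tnfsf8 was higher in leukemias. Tnfrsf25 had 4 reads in leukemias, 16 in Ebf1+/- cells and 12 in wild-type cells. Against wild type limma with no minimum level gave -0.5 (SE 0.08, adjusted p = 0.00273) for Tnfrsf8 and -0.17 (SE 0.05, adjusted p = 0.0196) for Tnfrsf25 in leukemias. Tnfrsf9, which encodes 4-1BB, averaged 0.175 ± 0.215 FPKM in leukemias, 0.338 ± 0.0668 in Ebf1+/- cells and 0.254 ± 0.145 in wild-type cells.

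**Figure D4:**
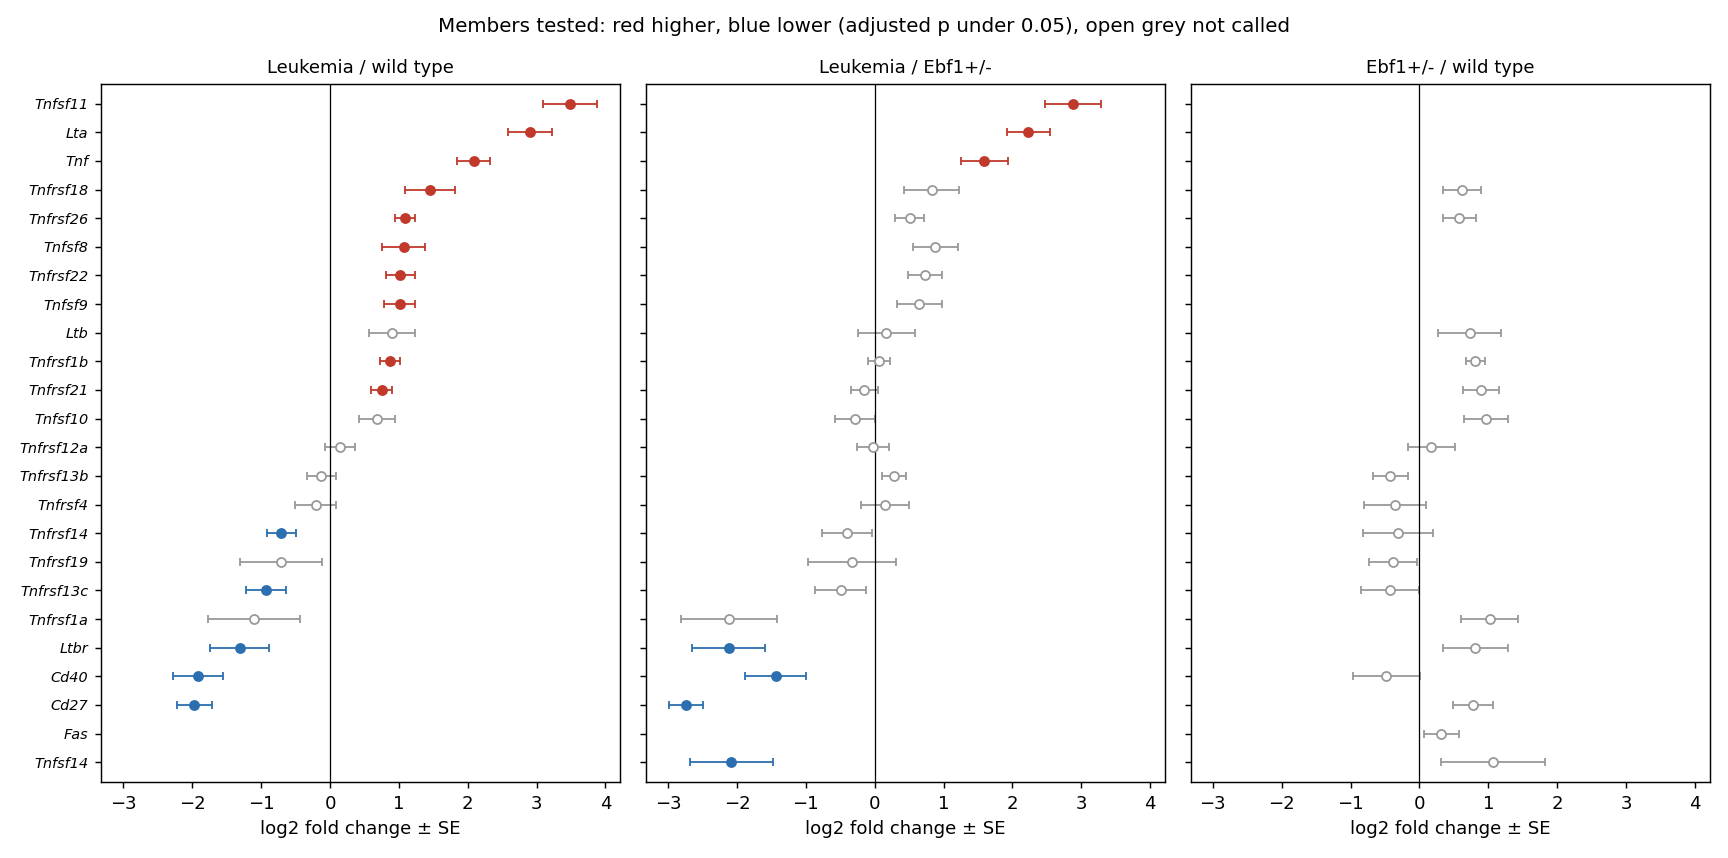
Log2 fold changes of the tested members on the log2(FPKM + 1) scale, with bars of 1 SE, in panels for leukemia against wild type, leukemia against Ebf1+/- and Ebf1+/- against wild type, all on 1 horizontal scale; red points were called higher and blue points lower by limma, and open grey points were not called. In leukemias 10 members are called higher and 5 lower against wild type and 3 higher and 4 lower against Ebf1+/- cells, and in Ebf1+/- cells 0 are called.

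Ebf1+/- cells were compared with wild type to see the family in progenitors with 1 inactive Ebf1 copy and without leukemia. Of 18 members tested, 0 were called by limma, as were 0 of all 11167 genes (0.0%), and voom on recovered reads also called 0 members. At an unadjusted p under 0.05 there were 6 members, where 7.73% of all genes reached it: Tnfrsf1b, Tnfrsf21, Tnfsf10, Cd27, Tnfrsf1a and Tnfrsf26. Beside Tnfsf10, given above, the log2 differences were 0.81 (SE 0.14, limma adjusted p = 0.228) for Tnfrsf1b, 0.89 (SE 0.26, adjusted p = 0.5) for Tnfrsf21, 0.78 (SE 0.29, adjusted p = 0.598) for Cd27, 1.02 (SE 0.41, adjusted p = 0.621) for Tnfrsf1a and 0.58 (SE 0.24, adjusted p = 0.633) for Tnfrsf26. All 6 had higher means in Ebf1+/- cells than in wild type, and for Tnfrsf1b, Tnfrsf21, Tnfsf10, Cd27 and Tnfrsf26 the groups did not overlap. With the replicate numbers taken as pairs, a description added after the values were seen, 11 of the 18 members were higher and 3 lower in Ebf1+/- cells in all 3 pairs. Of all 11167 genes tested, 45.1% kept 1 direction, 2749 of them higher and 2282 lower. Beside the 6, those higher in every pair were Ltb, Ltbr, Tnfrsf18, Tnfsf14 and Fas, and those lower were Tnfrsf13c, Cd40 and Tnfrsf4, and the fit with the replicate block called 0 of the members. The groups did not overlap for Tnfrsf18 either, nor for Lta and Tnfsf11, which were not tested here. No share over all genes is given for groups that do not overlap, so these separations are descriptive. They rest on the same values as the unadjusted p-values and add no evidence to them. Lta had a mean of 1.06 ± 0.325 FPKM in Ebf1+/- cells and 0.295 ± 0.328 in wild type (SD, n = 3 each), and Tnfsf11 had 1.09 ± 0.269 FPKM in Ebf1+/- cells and 0.380 ± 0.143 in wild type. Tnfsf11 had 96 reads in Ebf1+/- cells and 32 in wild type, a ratio of 2.87 (95% counting interval 1.91 to 4.43). Markers of other cell types also had positive log2 differences here, with 0 called. They were 10 of 10 for granulocytes (median 1.52), 6 of 6 for monocytes and macrophages (0.80), 7 of 7 for megakaryocytes and platelets (1.25) and 8 of 8 for NK cells (0.58). Of the B-lineage markers 3 of 12 were positive (median -0.22). The part of such cells in the member differences was not tested. The closest pair of all libraries was Ebf1+/- replicate 2 and wild-type replicate 2 (Pearson r = 0.989 across genes), and the listed aligner also differed between these groups, which bears on each comparison with Ebf1+/- cells.

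Against Ebf1+/- cells, 7 of 23 members tested were called in leukemias, 3 higher (Tnfsf11, Lta and Tnf) and 4 lower (Cd27, Ltbr, Tnfsf14 and Cd40), where 21.6% of all 11161 genes were called, 9.31% higher and 12.3% lower. The balance over all genes depended on the scaling: 1039 were higher and 1370 lower as deposited, against 1568 higher and 1120 lower with quantile scaling, which moved the median difference over all genes to 0.08, against -0.02 as deposited. Against wild type 2267 were higher and 2647 lower as deposited, and 2632 higher and 2385 lower with quantile scaling. Of the 23 members, 7 reached a mean of 1 FPKM in 1 group alone, and of the 16 that reached it in both, 2 were called, Tnfsf11 and Lta. Both comparisons of leukemias share the leukemia libraries, so their values are set side by side and not counted as separate evidence.

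The summed levels of ligands and receptors were compared as a description, with no test. The 17 ligands summed to 74.2 to 102 FPKM in leukemias, 55.4 to 88.1 in Ebf1+/- cells and 25.8 to 40 in wild-type cells, so that every leukemia lay above every wild-type library and the leukemias overlapped Ebf1+/- cells. The 23 receptors summed to 141 to 156 FPKM in leukemias, 183 to 207 in Ebf1+/- cells and 163 to 203 in wild-type cells, so that every leukemia lay below every marrow library. Among ligands the mean order in leukemias was Ltb (43.0 FPKM), Tnfsf11 (16.0), Tnfsf10 (9.35), Lta (9.21) and Tnf (4.21), and Tnfsf10 and Lta did not differ beyond their spread (SD 3.01 and 4.31). In Ebf1+/- cells it was Ltb (40.1 FPKM), Tnfsf10 (11.8) and Tnfsf14 (8.22), and in wild-type cells Ltb (22.2), Tnfsf10 (5.39) and Tnfsf14 (1.91). Ltb led the ligands in 9 of the 11 libraries; in leukemia 2 Tnfsf11 led, with 27.4 FPKM or 36.3% of the ligand sum, and in Ebf1+/- replicate 3 Tnfsf14 led, with 20.3 FPKM or 36.7%. Tnfrsf13c was the first receptor by mean level in all 3 groups, at 29.1 FPKM in leukemias, 43.6 in Ebf1+/- cells and 55.8 in wild-type cells. Tnfrsf13b followed in leukemias (23.7 FPKM) and in wild-type cells (26.5), and Tnfrsf14 in Ebf1+/- cells (22.2).

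Downstream and neighbouring genes of the pathway, a list of 44, were split in direction. Of 39 tested in leukemias against wild type, 8 were higher and 13 lower, with a median log2 difference of -0.21 against -0.04 over all genes, and the called share is to be read beside the 44.8% of all genes. In Ebf1+/- cells 0 of 38 were called, with 7 at an unadjusted p under 0.05, and in leukemias against Ebf1+/- cells 5 of 39 were higher and 6 lower. Of the 6 TRAF adaptors, Traf4 was higher and Traf2, Traf5 and Traf6 were lower. Of the 19 genes of the receptor-bound signalling complex and its regulators, 2 were higher and 8 lower. Of the 8 with the smallest p, Relt, a receptor relative without a family number, rose to 22.9 ± 2.32 FPKM in leukemias (SD, n = 5), against 5.84 ± 0.856 in wild type (n = 3), a log2 fold change of 1.81 (SE 0.12, adjusted p = 1.64e-05, limma). Its Ebf1+/- values of 11.1, 7.76 and 8.88 FPKM lay between the other groups without overlap.

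Adam10, a protease that sheds membrane proteins, averaged 41.5 ± 5.67 FPKM in leukemias and 110 ± 10.5 in wild type (log2 difference -1.39, SE 0.13, adjusted p = 8.59e-05). Birc3, the ubiquitin ligase cIAP2, which is itself an NF-kB target, averaged 13.8 ± 2.30 FPKM in leukemias and 44.9 ± 9.91 in wild type (-1.62, SE 0.16, adjusted p = 0.000123). Traf6, an adaptor of CD40 and RANK signalling, averaged 13.6 ± 1.43 FPKM in leukemias and 30.6 ± 3.95 in wild type (-1.12, SE 0.12, adjusted p = 0.000137). These genes, like Traf5 at 8.57 ± 0.893 FPKM in leukemias and 23.6 ± 9.13 in wild type (-1.31, SE 0.20, adjusted p = 0.000964), were lower in every leukemia than in every wild-type library. Traf4 averaged 30.7 ± 1.6 FPKM in leukemias and 14.8 ± 2.98 in wild type (1.02, SE 0.12, adjusted p = 0.000270). Map3k8, the kinase TPL2, averaged 3.12 ± 0.815 FPKM in leukemias and 0.657 ± 0.266 in wild type (1.31, SE 0.21, adjusted p = 0.00120). Ripk3, a kinase of necroptosis, averaged 35.3 ± 3.89 FPKM in leukemias and 22.3 ± 1.84 in wild type (0.64, SE 0.11, adjusted p = 0.00176). These 3 were higher in every leukemia than in every wild-type library. Ripk3 stood at 34.6, 30.2 and 22.6 FPKM in Ebf1+/- cells, which overlapped the leukemias. Map3k8 reached the minimum level through leukemias alone.

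**Figure D5:**
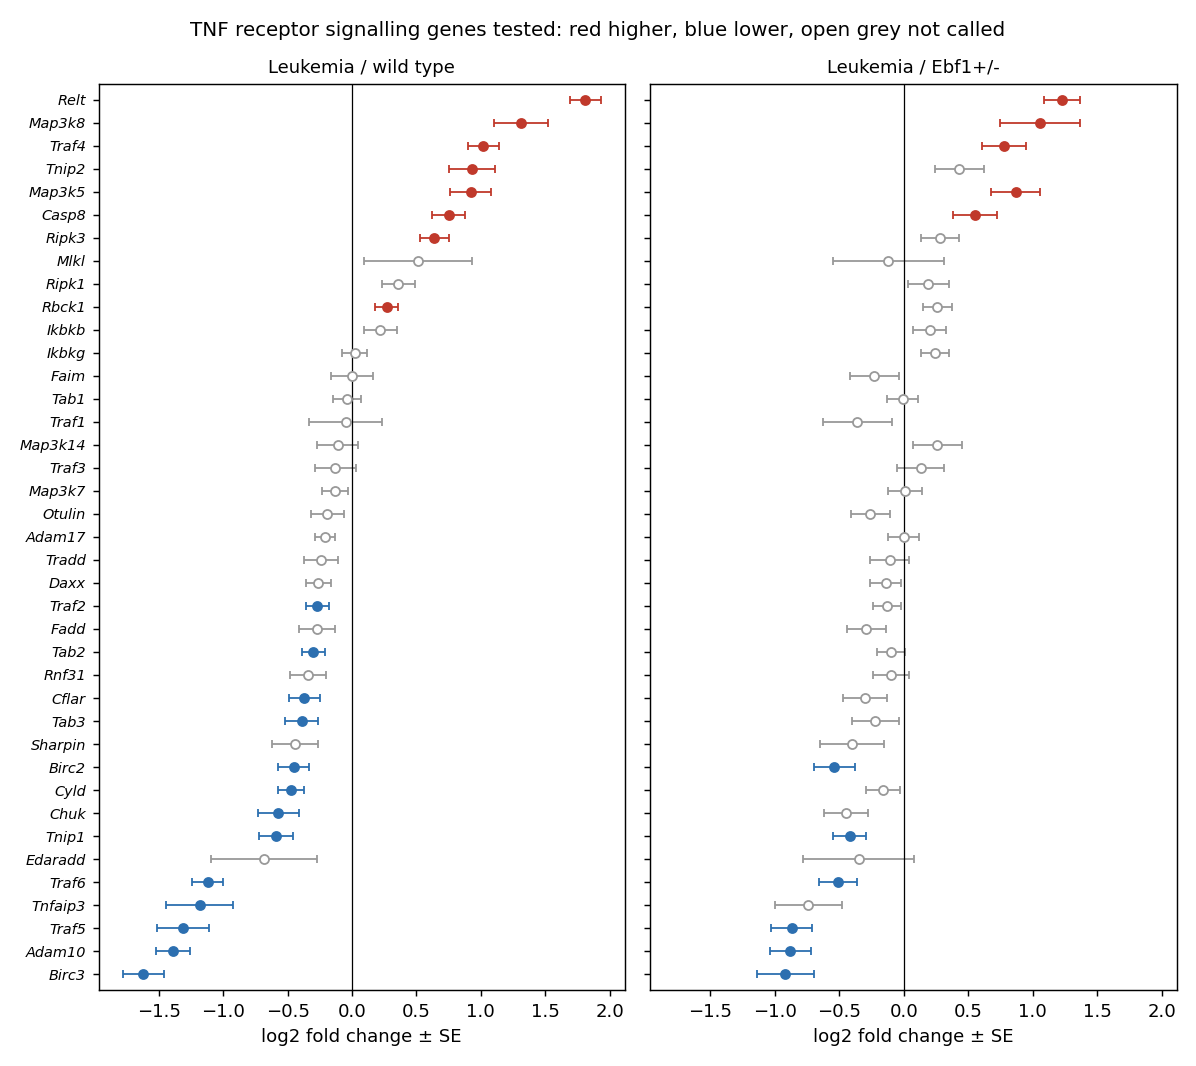
Log2 fold changes of the tested pathway genes on the log2(FPKM + 1) scale, with bars of 1 SE, in leukemia against wild type (left) and against Ebf1+/- cells (right); red points were called higher and blue points lower by limma, and open grey points were not called. Against wild type Relt is the highest and Birc3 the lowest, and 8 genes are called higher and 13 lower.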

How the data were processed

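The authors deposited 1 table of FPKM values for 23071 gene identifiers in 11 libraries, and FPKM is the unit of every level given. The submitters' processing notes name BWA 0.7.12 for leukemia and wild-type libraries, TopHat2 and Cufflinks for Ebf1+/- libraries, and the mouse build mm10 (GRCm38). For the read counter, the annotation and the use of strand nothing is given in the sources used here, so that reads of overlapping genes or close paralogs could not be told apart. The values of all 17380 genes above 0 were whole reads within 0.001 read once gene lengths and library totals had been recovered from their steps. These reads gave depth, ratios and counting intervals, and, without molecular identifiers, intervals cover counting error only.

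On the scale log2(FPKM + 1), every gene whose mean over the compared libraries reached 1 FPKM entered a two-sided limma-trend fit of those groups alone (limma 3.58.1, R 4.3.3), with Benjamini-Hochberg adjustment over all genes tested in each of 3 comparisons. The fit was also run on reads simulated with the same spread for every gene and group, a setting simpler than these data, and no result rests on it. Tables and figures used Python 3.11.15, NumPy 2.4.6, pandas 2.3.3, SciPy 1.17.1 and Matplotlib 3.10.9. Symbols were matched to GENCODE M21 for 22014 identifiers, all 40 members included. Members called in at least 1 comparison or with a group mean of at least 5 FPKM (21 genes) were named with every value, and of the pathway list the 8 called genes of smallest p. Low members outside this rule were chosen after their values were seen. The members and all lists were chosen with earlier results of these data known.

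Alternatives were a pseudocount of 0.1, no minimum level, a minimum of 5 FPKM, scaling by quantiles or by median ratios, 1 fit of all groups, a replicate block, voom on recovered reads and leaving out each replicate. Deviations from group means of libraries with the same replicate number correlated at 0.652, 0.325 and 0.690 between Ebf1+/- and wild-type cells, so those numbers were taken to pair the samples, although no label gives a day or batch.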

Additional observations from a re-analysis of the deposited data

Results flagged for a closer look

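In the 5 leukemias, 21 named members were each examined for a library far from the rest, and 2 were found, where chance gives about 1 in 20. Cd40 stood at 2.17 FPKM in leukemia 1, against 0.599 FPKM in the next highest leukemia and 0.173 FPKM in the lowest, a gap of 0.787 of the whole range. Tnfsf8 stood at 0.347 FPKM in leukemia 4, against 1.91 FPKM in the next lowest leukemia and 2.39 FPKM in the highest, a gap of 0.766 of the range.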

How the results depend on the processing

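Against wild type, leukemias had 15 members called, 23 with no minimum level (39 tested, 11 higher and 12 lower) and 8 with a minimum of 5 FPKM (13 tested), and 12 to 17 without each replicate in turn. Against Ebf1+/- cells they had 7, with 2 at the minimum of 5 FPKM, and 5 to 7 without each replicate. Fewer or more genes tested is part of both minimum-level settings. With no minimum level 34.8% of all genes were called against wild type. For the minimum of 5 FPKM and the left-out replicates no share over all genes is given, so these counts are descriptive. Pathway calls against wild type numbered 21, and 16 to 22 without each replicate; against Ebf1+/- cells they numbered 11, and 6 to 11 without each replicate. In Ebf1+/- cells against wild type 0 members and 0 pathway genes were called in every alternative run. Of all settings 772 kept direction and side of the threshold, 43 lost a call, 20 gained one and 12 changed sign.

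With the replicate number as a block, members called were 13 (leukemia against wild type), 6 (leukemia against Ebf1+/-) and 0 (Ebf1+/- against wild type), and pathway genes 17, 2 and 0. No share over all genes is given for this fit, so these counts are descriptive as well. The leukemia libraries share only a number with the marrow libraries: deviations correlated at -0.053, 0.097 and -0.164 with wild type and at -0.009, 0.130 and -0.117 with Ebf1+/- cells. Leukemias 4 and 5 have no marrow library of their number, and so they add nothing to the difference in this fit. A call of leukemias lost with the block thus rests on fewer leukemias than the main fit. Between Ebf1+/- and wild type the block changed no call.

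The sign changes were all of differences that were not called, and the cause was not tested. In leukemias against wild type, Tnfrsf13b was 0.01 without wild-type replicate 2 and -0.39 to 0.01 without each replicate in turn. In Ebf1+/- cells against wild type, Tnfrsf13c was 0.01 without Ebf1+/- replicate 3 (-0.76 to 0.01 over left-out replicates) and Tnfrsf14 was 0.24 without Ebf1+/- replicate 1 (-0.73 to 0.24). In leukemias against Ebf1+/- cells, Ltb was -0.01 without leukemia 1 and -0.26 without Ebf1+/- replicate 3 (-0.26 to 0.59). Without Ebf1+/- replicate 3, Tnfrsf14 was 0.01 (-0.95 to 0.01) and Tnfrsf21 was 0.11 (-0.30 to 0.11). Tnfrsf19 was 0.17 without leukemia 1 and 0.03 without Ebf1+/- replicate 2 (-0.66 to 0.17). Tnfrsf1b was -0.08 with the block and -0.03 without leukemia 5 (-0.03 to 0.14), and Tnfsf10 was 0.01 without Ebf1+/- replicate 2 (-0.45 to 0.01).

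Depth limits members under 1 FPKM, where a library often held a few reads, and their ratios rest on reads summed over libraries. Tissue, purification, leukemic state and genotype differ together.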

Other observations

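Leukemia 1, the shallowest library at 8.51 in units of 1e6 reads, stood at an end of the leukemia range for many members. It had the highest values of Ltb (67.8 FPKM), Cd27 (1.27), Cd40 (2.17), Ltbr (3.03), Tnfrsf1a (8.35), Tnfrsf11a (1.64), Tnfrsf13b (31.8) and Tnfsf14 (1.01). It had the lowest values of Tnf (2.49 FPKM), Lta (5.95), Tnfsf11 (5.63), Tnfsf10 (6.02), Tnfrsf1b (13.0), Tnfrsf21 (8.85) and Tnfrsf19 (3.05). In the same library the T cell markers summed to 143 FPKM and the dendritic cell markers to 68.3 FPKM, the highest sums among the 5 leukemias, which otherwise ran from 12.8 to 82.4 and from 9.0 to 18.0 FPKM. In leukemia 1, Lat (64.3 FPKM) and Trat1 (54.8) made up most of the first sum and Flt3 (57.8) most of the second. Whether these sums reflect T cells or dendritic cells, and their part in the member values, was not tested.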
